A study of Mus musculus with 4 samples.

Results

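Insulin and IGF1 signalling and its FoxO transcription factors were followed through 10 genes of mouse primary myotubes, taken from a list of names with no threshold on their values, though with earlier results of these data known. The genes were Igf1, Igf1r, Insr, Irs1, Irs2, Pik3r1, Akt2, Foxo1, Foxo3 and Foxo4. They are 10 of the 53647 genes in the count tables, and all 10 were among the 15173 genes that passed the filter on low counts. The cells were WT primary myotubes, grown from myoblasts that came from limb muscle of pups aged 2 to 3 days and that had been moved into horse serum to fuse. Control myotubes (2 libraries) were compared with myotubes given recombinant EDA-A2, the ligand of the TNF receptor superfamily member EDA2R, at 250 ng/mL for 24 h (2 libraries). All cells were harvested 72 h after differentiation began. The study's methods describe its replicates in general as biological, but the labels do not say whether these libraries came from separate isolations or cultures, so the p-values measure the spread between these libraries, which may be technical.

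As background, insulin and IGF1 bind related receptor tyrosine kinases that phosphorylate the docking proteins IRS1 and IRS2. These recruit PI3-kinase, whose lipid product activates AKT, and AKT drives glucose uptake and protein synthesis while it phosphorylates FoxO proteins and holds them outside the nucleus. In skeletal muscle the pathway promotes growth, and nuclear FoxO factors switch on atrophy genes such as the ubiquitin ligases Fbxo32 (Atrogin1) and Trim63 (MuRF1). Much of this control acts on phosphorylation and protein location, which RNA levels do not show.

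Counts on genes summed to 29444155 to 29746863 per library. Over all genes tested, 371 were called higher and 323 lower after EDA-A2 (edgeR's quasi-likelihood test, Benjamini-Hochberg adjusted p under 0.05), which is 4.57% of the genes tested (2.45% higher and 2.13% lower). Under scaling to total counts the split was 485 higher and 194 lower. Myotube markers were abundant, with a summed level of 20200 and 21300 CPM (counts scaled to library size) in control and 15100 and 15300 CPM in EDA-A2 libraries, and 3 of 8 of them (Myh3, Acta1 and Actn2) were called, all lower. In bulk RNA, fewer cells of a type and less RNA per cell cannot be told apart. Summed markers of myoblasts were 1270 to 1350 CPM in control and 1240 to 1260 CPM in EDA-A2 libraries, with 1 of 5 called, lower. Those of dividing cells were 694 to 823 and 755 to 770 CPM, and those of fibroblasts 1680 to 1740 and 1600 to 1620 CPM, with Lum and Thy1 listed at 0 in all libraries. Macrophage markers summed to 2.71 to 2.96 CPM in control and 3.55 to 4.30 CPM in EDA-A2 libraries, and endothelial markers to 1.08 to 1.23 and 0.996 to 1.23 CPM. Adipocyte markers stayed at or under 3 counts in every library. No member of the fibroblast, dividing, macrophage, endothelial or adipocyte lists was called, and the part of these lists in the values below was not tested.

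None of the 10 insulin, IGF1 receptor and FoxO genes was called higher or lower after EDA-A2, against 4.57% of all genes tested (2.45% higher, 2.13% lower). DESeq2 and limma voom also called 0 of the 10. At an unadjusted p under 0.05 in edgeR, 2 of the 10 were higher (Pik3r1 and Foxo1) and 2 were lower (Irs1 and Irs2), against 15.6% of all genes tested. Fitted log2 fold changes ran from -0.38 for Irs1 to 0.24 for Pik3r1, with a median of -0.05 against 0.00 over all genes tested, and 3 of the 10 were above 0 against 49.5% of all genes tested. The median absolute change was 0.11, and it was also 0.11 over all genes tested. The 95% intervals of all 10 genes excluded a 2-fold change in either direction, and those of 9 excluded a 1.5-fold change, the exception being Irs1. The libraries of the conditions did not overlap for 5 of the 10 genes, 2 higher and 3 lower after EDA-A2, against 45.0% of all genes tested (22.8% higher and 22.2% lower).

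**Figure D1:**
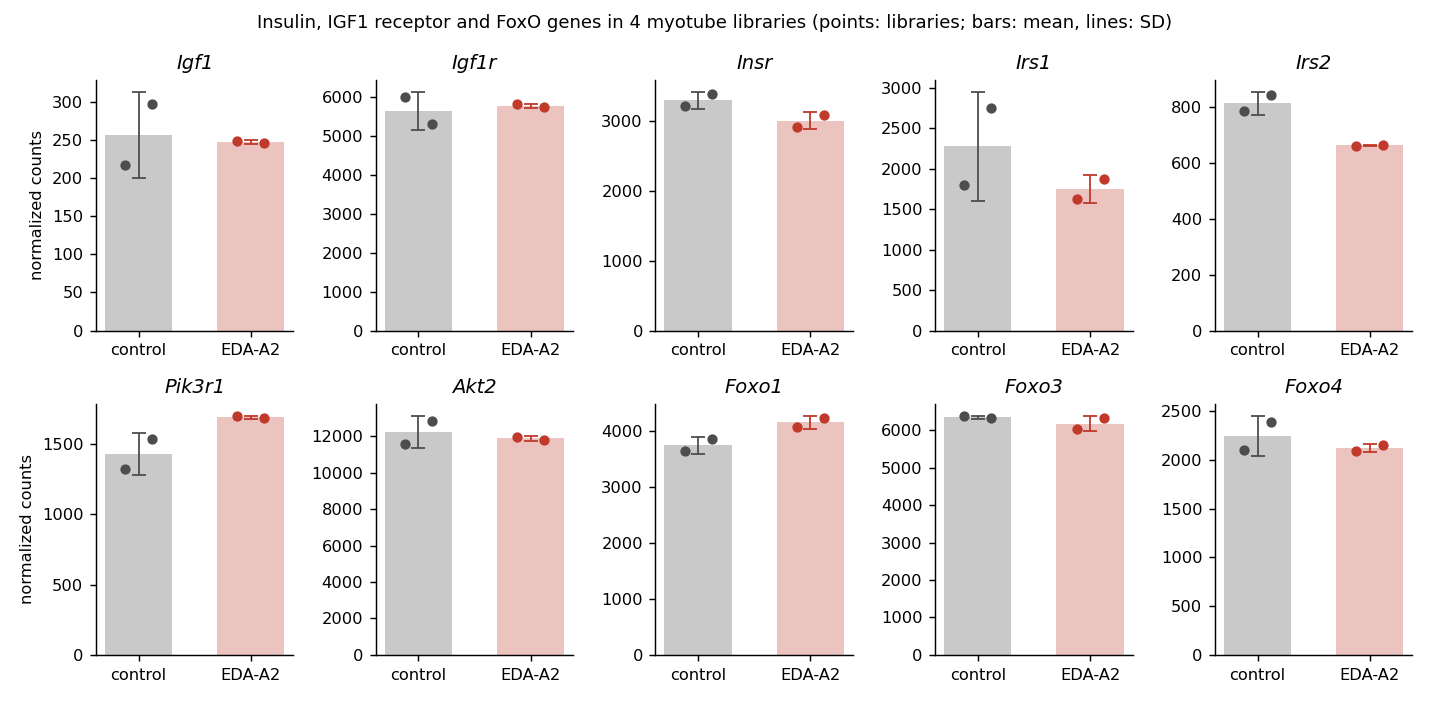
Normalized counts (y axis, from 0) of the 10 genes in control and EDA-A2 libraries, with points for the 2 libraries of a condition, bars for their mean and lines for their SD. The Irs1 controls sit at 1800 and 2756, on either side of an EDA-A2 library at 1870. Insr, Irs2, Pik3r1, Foxo1 and Foxo3 show no overlap between conditions, as do 45.0% of all genes tested.

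The ligand gene among the 10, Igf1, came first in the pathway and was scarce. Igf1 (ENSMUSG00000020053, chromosome 10 from 87693642 to 87772904 of GRCm39), which encodes the growth factor that muscle also makes for itself, had 217 and 297 normalized counts (counts put on one TMM-scaled library size) in control and 249 and 246 after EDA-A2. Both EDA-A2 libraries lay between the controls, which differed 1.37-fold. The fold after EDA-A2 was 0.960 with a 95% interval of 0.767 to 1.20 (adjusted p = 0.915, edgeR). Its fitted log2 fold change of -0.06 became 0.19 without control replicate 2 and -0.26 without control replicate 1.

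Neither receptor gene was called. Igf1r (ENSMUSG00000005533, chromosome 7 from 67601518 to 67883416), the IGF1 receptor, had 5982 and 5287 normalized counts in control and 5800 and 5730 in EDA-A2 libraries, so that the EDA-A2 values again fell between the controls. Its fold was 1.02 with an interval of 0.919 to 1.14 (adjusted p = 0.896, edgeR), and the log2 value of 0.03 became -0.05 without control replicate 2 and 0.13 without control replicate 1. Insr (ENSMUSG00000005534, chromosome 8 from 3172061 to 3329647), the insulin receptor, had 3216 and 3387 normalized counts in control and 2921 and 3091 in EDA-A2 libraries. Both EDA-A2 libraries were under both controls for Insr, by less than the difference between the controls at the nearest pair, and the fold was 0.910 with an interval of 0.822 to 1.01 (adjusted p = 0.386, edgeR). The log2 value of Insr, -0.14, was -0.09 without EDA-A2 replicate 1 and -0.18 without EDA-A2 replicate 2. Of the summed level of both receptors per kilobase of annotated exon, Insr made up 43.5% and 47.9% in control and 42.0% and 43.6% in EDA-A2 libraries.

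The docking proteins had the lowest fitted values of the 10 genes, but with different spreads. Irs1 (ENSMUSG00000055980, chromosome 1 from 82210822 to 82269338), the main substrate of the insulin and IGF1 receptors in muscle, had 1800 and 2756 normalized counts in control and 1624 and 1870 after EDA-A2. The controls differed 1.53-fold, and control replicate 1 lay between the EDA-A2 values. For Irs1 the log2 fold change was -0.38 (standard error 0.14, 95% interval -0.68 to -0.09, adjusted p = 0.163, edgeR). It rested on control replicate 2: without that library it was -0.04, and without control replicate 1 it was -0.66.

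Irs2 (ENSMUSG00000038894, chromosome 8 from 11034681 to 11059499), the second docking protein and a known FoxO target in liver, had 783 and 841 normalized counts in control and 659 and 663 in EDA-A2 libraries. Both EDA-A2 libraries were under both controls, and they differed from each other by far less than the controls did (812 ± 41.0 against 661 ± 3.31, SD, n = 2 each). The log2 fold change was -0.30 (standard error 0.09, interval -0.49 to -0.11). The adjusted p of 0.0797 from edgeR missed the threshold, and Irs2 ranked 897 by p-value among the 15173 genes tested. Leaving out each library in turn gave -0.35 to -0.24.

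**Figure D2:**
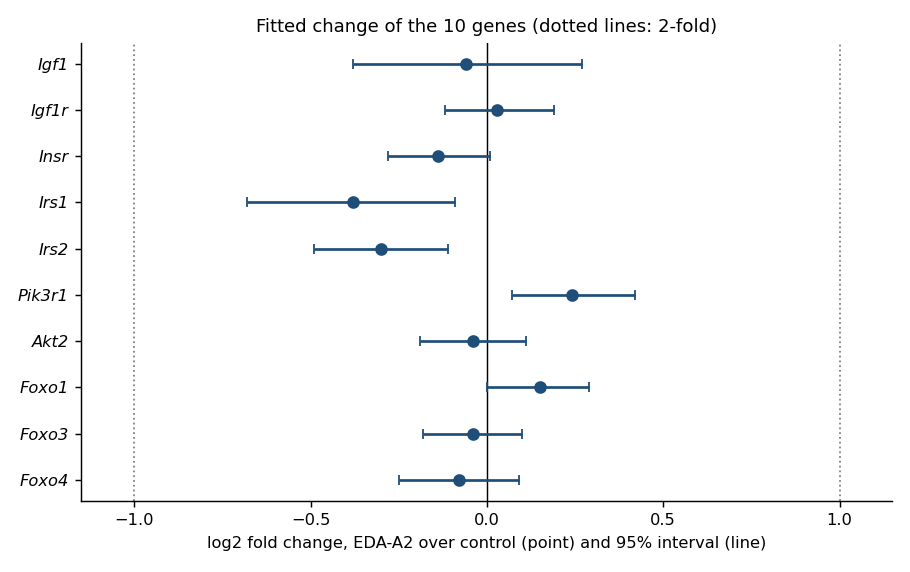
Fitted log2 fold change (x axis, EDA-A2 over control) of each of the 10 genes with its 95% interval from edgeR, with dotted lines at a 2-fold change. All intervals lie within the dotted lines, and those of Irs1, Irs2, Pik3r1 and Foxo1 lie to one side of 0 before adjustment for the genes tested.

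RefSeq promoter windows, which run from 250 bases before a transcript start to 50 after it, were matched for 8 of the 10 genes (12 windows), with no entry for Insr and Foxo4. The windows were searched on both strands for a FoxO motif (TGTTTAC), for the core of the insulin response sequence (TGTTTTG), which FoxO proteins also bind, and for the NFκB consensus. The first 2 motifs begin with the same letters and cannot match the same bases, but neighbouring matches can overlap. The core of the insulin response sequence was found in the windows of Irs1 (2 matches) and Irs2 (1 match) and in 6.28% of all 32851 windows. The sites are shown because they were the only matches to this core in the 12 windows, whatever the fitted values. The match is in capitals with 10 bases on either side, and its part in the levels of Irs1 and Irs2 was not tested. They lie on the minus strand of GRCm39, at chr1:82269255-82269281, chr1:82269176-82269202 and chr8:11058950-11058976, within annotated exons.
Irs1 first site: ctccgtcacgTGTTTTGctcctctgga
Irs1 second site: agccgccgctTGTTTTGgttggggctc
Irs2 site: agtcacgtgtTGTTTTGctcttagttc
A match describes letters in the window, and no binding was measured. The FoxO motif was found in 3.65% of all windows and in none of the 12 windows.

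Of the kinase steps, the regulatory subunit had the highest fitted value of the 10 genes and AKT2 one near 0. Pik3r1 (ENSMUSG00000041417, chromosome 13 from 101817071 to 101904725) encodes p85α, the regulatory subunit that ties PI3-kinase to IRS proteins. It had 1322 and 1534 normalized counts in control and 1696 and 1683 in EDA-A2 libraries, so both EDA-A2 libraries were above both controls. The log2 fold change was 0.24 (standard error 0.08, interval 0.07 to 0.42), an 18.3% higher level, and its adjusted p of 0.131 from edgeR missed the threshold. It was 0.14 without control replicate 1 and 0.35 without control replicate 2. Of the summed level of 3 regulatory subunit genes per kilobase (Pik3r1, Pik3r2 and Pik3r3), Pik3r1 made up 17.9% and 20.3% in control and 22.5% and 22.6% in EDA-A2 libraries. The count of Pik3r3 is uncertain because Gm49337 shares 22.7% of its exon bases.

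The NFκB consensus was found in 4.51% of all windows and, among the 8 genes, in 1 window of Pik3r1. That window is shown because it held the match, whatever the fitted value of Pik3r1, which was not called. It covers the 250 bases before the annotated gene start, at chr13:101904726-101904975 on the minus strand of GRCm39, with the match in capitals, at position -208 from the RefSeq start.
Pik3r1 promoter: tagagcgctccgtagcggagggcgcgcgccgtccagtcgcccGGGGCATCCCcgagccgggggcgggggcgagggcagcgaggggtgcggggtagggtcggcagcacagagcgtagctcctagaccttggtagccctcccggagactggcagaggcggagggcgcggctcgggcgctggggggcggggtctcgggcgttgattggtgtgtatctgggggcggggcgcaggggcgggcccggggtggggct
The other window of Pik3r1 held none of the motifs. Binding of NFκB was not measured, and the part of this match in the level of Pik3r1 was not tested.

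Akt2 (ENSMUSG00000004056, chromosome 7 from 27284378 to 27340262), the AKT kinase that carries most of insulin's effect on glucose uptake, had 11605 and 12855 normalized counts in control and 11975 and 11791 in EDA-A2 libraries. The EDA-A2 libraries lay between the controls. Its fold was 0.972 with an interval of 0.875 to 1.08 (adjusted p = 0.865, edgeR), and the log2 value of -0.04 was 0.01 under scaling to total counts and 0.04 without control replicate 2. Akt2 made up 35.3% and 37.8% of the summed level of the 3 AKT genes per kilobase in control and 36.3% in both EDA-A2 libraries, with the count of Akt1 uncertain because Siva1 shares 42.7% of its exon bases.

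The FoxO genes differed among themselves in sign, with none called. Foxo1 (ENSMUSG00000044167, chromosome 3 from 52175757 to 52260642), a driver of atrophy genes in muscle, had 3632 and 3847 normalized counts in control and 4067 and 4226 in EDA-A2 libraries. Both EDA-A2 libraries were above both controls. For Foxo1 the log2 fold change was 0.15 (standard error 0.07, interval 0.00 to 0.29, adjusted p = 0.302, edgeR), and it was 0.11 to 0.19 with each library left out in turn.

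Foxo3 (ENSMUSG00000048756, chromosome 10 from 42057837 to 42154007), which in muscle acts on both autophagy and proteasome genes, had 6369 and 6322 normalized counts in control and 6038 and 6319 in EDA-A2 libraries. The EDA-A2 libraries were lower, but the nearest pair differed by only 2.41 normalized counts. Its fold was 0.974 with an interval of 0.883 to 1.07 (adjusted p = 0.865, edgeR), and its log2 value of -0.04 was 0.02 under scaling to total counts, -0.01 without EDA-A2 replicate 1 and -0.07 without EDA-A2 replicate 2. Foxo4 (ENSMUSG00000042903, chromosome X from 100298073 to 100304479), the smallest of these genes, had 2095 and 2387 normalized counts in control and 2092 and 2149 in EDA-A2 libraries. Its libraries overlapped, and the fold was 0.946 with an interval of 0.844 to 1.06 (adjusted p = 0.716, edgeR). The log2 value of Foxo4, -0.08, was 0.02 without control replicate 2 and -0.17 without control replicate 1.

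Within the FoxO family, the share of Foxo1 in the summed level per kilobase of Foxo1, Foxo3, Foxo4 and Foxo6 was 21.9% and 22.1% in control and 24.7% in both EDA-A2 libraries. That of Foxo3 was 38.5% and 36.4% in control and 36.9% and 37.1% in EDA-A2 libraries, and that of Foxo4 was 33.0% and 35.8% against 33.3% and 32.9%. Foxo6, which is outside the 10 genes, made up 6.6% and 5.76% in control and 5.1% and 5.3% in EDA-A2 libraries. The shares of Foxo1 (higher) and Foxo6 (lower) did not overlap between conditions, while those of Foxo3 and Foxo4 did. By normalized counts, 45.0% of all genes tested did not overlap, and shares within a family depend on each other. These shares are descriptions and were not tested.

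The control libraries differed from each other more than the EDA-A2 libraries did for 9 of the 10 genes by SD of the normalized counts, Foxo3 being the exception. The share of all genes with a larger control SD was not computed. By another measure, on raw counts over all genes with enough counts, the control libraries also differed more. The chi-square per gene between replicate libraries was 9.33 in control and 4.45 in EDA-A2. Without 1 control library, the log2 fold change moved by over 1.5 times or changed sign for Igf1, Igf1r, Irs1, Pik3r1, Akt2 and Foxo4, as given above. Without EDA-A2 replicate 1 it moved as much for Insr and Foxo3, and without EDA-A2 replicate 2 for Foxo3. The plot of the change with each library left out shows these shifts.

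**Figure D3:**
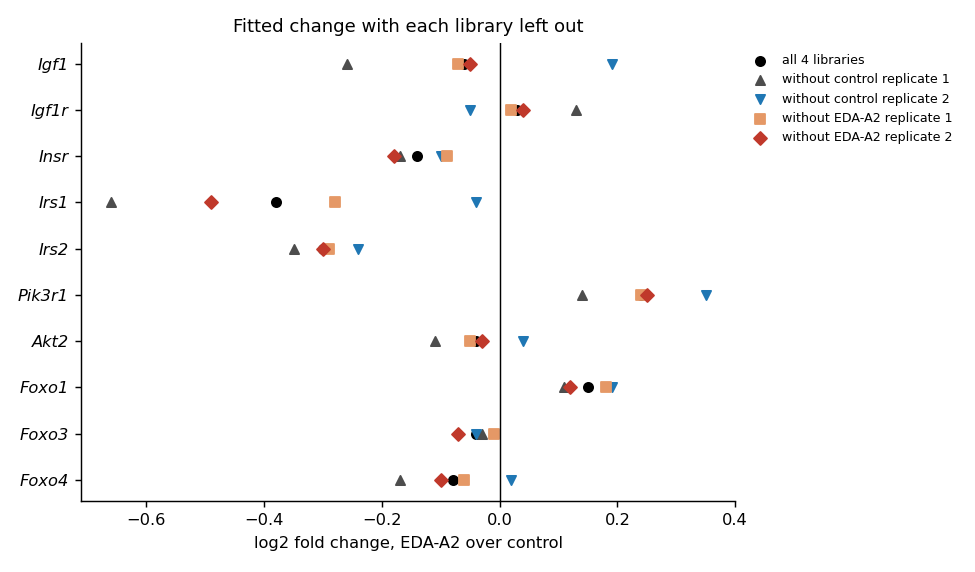
Fitted log2 fold change (x axis, EDA-A2 over control) of the 10 genes with all 4 libraries and with each left out in turn. Irs1 runs from -0.66 without control replicate 1 to -0.04 without control replicate 2, while Irs2 stays between -0.35 and -0.24.

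Levels between genes were compared per length, as counts per kilobase of annotated exon scaled to library size (RPKM), over the 4 libraries. Akt2 was highest at 31.4 ± 1.44 RPKM (SD, n = 4), followed by Foxo3 at 22.9 ± 0.553, Foxo4 at 20.8 ± 1.33 and Foxo1 at 14.4 ± 0.944 RPKM. The ranges of Foxo3 and Foxo4 overlapped, so their order is not set by these libraries. Igf1r had 9.74 ± 0.504 RPKM and Insr 7.73 ± 0.483 RPKM. Irs1 had 7.27 ± 1.83 RPKM, and its range of 5.87 to 9.96 overlapped those of both receptors, so the place of Irs1 among them is not set. Pik3r1 (4.90 ± 0.548 RPKM), Irs2 (3.38 ± 0.414 RPKM) and Igf1 (0.833 ± 0.11 RPKM) were lowest, each apart from all the others. The order depends on the length used. With the canonical transcript in place of all annotated exons, a choice made after the data were seen, Akt2 had 88.7 RPKM, Igf1r (15.4) overlapped Foxo1 (15.4), and Pik3r1 (7.40) overlapped Irs1 (7.27).

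**Figure D4:**
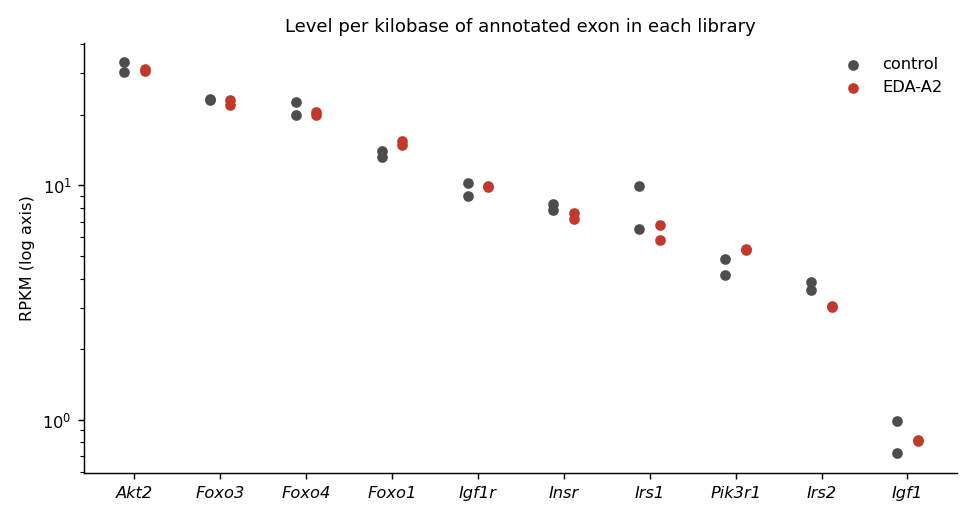
Level of the 10 genes in RPKM (y axis, log scale) in each of the 2 control and 2 EDA-A2 libraries, ordered by the mean over 4 libraries. Levels run from over 30 RPKM for Akt2 to under 1 for Igf1, and the conditions differ far less than the genes do.

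Around these 10 genes, the rest of the pathway was taken from a list of 79 genes, of which 73 were tested. After EDA-A2, 0 were called higher and 5 lower, 6.85% of those tested against 4.57% of all genes. Their median change was -0.05 on the log2 scale against 0.00 over all genes. Of the 73, 51 had a value below 0, against 7665 of all 15173 genes tested. Under scaling to total counts, which moved the median of all genes to 0.053, 36 of 73 were below 0. The 5 genes fell by similar amounts. Igf2, the second IGF ligand, fell from 2526 and 2394 to 1827 and 2054 normalized counts (log2 fold change -0.34, adjusted p = 0.0178, edgeR), but a read-through transcript, Gm49394, covers 58.4% of its exon bases, so its count is uncertain. Ptprf, a receptor phosphatase that can act on the insulin receptor, fell from 2313 and 2025 to 1666 and 1620 normalized counts (-0.40, adjusted p = 0.00782, edgeR). Slc2a4, the insulin-responsive glucose transporter GLUT4, fell from 616 and 637 to 432 and 503 (-0.42, adjusted p = 0.0304, edgeR).

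Pik3cb, the catalytic PI3-kinase subunit p110β, and Grb10, an adaptor that restrains both receptors, were closest to the threshold. Pik3cb fell from 687 and 612 to 477 and 519 normalized counts (log2 fold change -0.38, adjusted p = 0.0450, edgeR). Grb10 fell from 662 and 568 to 450 and 485 normalized counts (-0.39, adjusted p = 0.0490, edgeR). Of 13 alternative settings, the call of Grb10 held in 2, that of Pik3cb in 5, that of Slc2a4 in 7, and those of Igf2 and Ptprf in 9 each. All 5 calls ended without either control library. Without EDA-A2 replicate 1 the call of Ptprf held, and without EDA-A2 replicate 2 those of Igf2 and Slc2a4 held.

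In the roles with no gene called, the gene with the smallest p-value was Crk among adaptors (log2 fold change -0.11, adjusted p = 0.526, edgeR) and Inpp4b among lipid phosphatases (-0.20, adjusted p = 0.125). It was Trib1 among AKT genes and their regulators (-0.33, adjusted p = 0.148, edgeR), Rptor of mTORC1 (-0.27, adjusted p = 0.0526) and Mdm2 among FoxO regulators (0.21, adjusted p = 0.128). Single libraries moved some of these values: Trib1 was -0.15 without control replicate 2, Crk was -0.05 without EDA-A2 replicate 1 and -0.17 without EDA-A2 replicate 2, and Mdm2 was 0.14 without control replicate 1. Ins1 and Irs3 were listed at 0 counts in every library, which at this depth allows up to 0.101 to 0.102 CPM by counting error alone.

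Known FoxO target genes were examined with a list of 24, all tested. Of these 2 were called higher and 0 lower (8.33%, against 4.57% of all genes tested), and the median change of the list was -0.02 on the log2 scale against 0.00 over all genes. The 2 were the muscle ubiquitin ligases. Trim63 rose from 2014 and 2070 to 3449 and 3794 normalized counts (log2 fold change 0.83, standard error 0.07, adjusted p = 7.62e-06, edgeR). Fbxo32 rose from 1660 and 1885 to 2812 and 2747 normalized counts (0.65, standard error 0.08, adjusted p = 0.000121, edgeR). The other 22 targets lay between -0.21 and 0.21 on the log2 scale. At an unadjusted p under 0.05 there were 4 higher and 5 lower in the list, the called genes included, against 15.6% of all genes tested. This split was 3 higher and 3 lower with the DESeq2 Wald test. It was 6 higher and 0 lower under scaling to total counts, which moved the median of all genes to 0.053. Both calls ended without either control library, where no gene was called (adjusted p of 0.178 to 0.256, edgeR). Gm15943 shares 4.75% of the exon bases of Fbxo32. Where FoxO proteins were in the cell, and whether they bound these genes, was not measured.

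**Figure D5:**
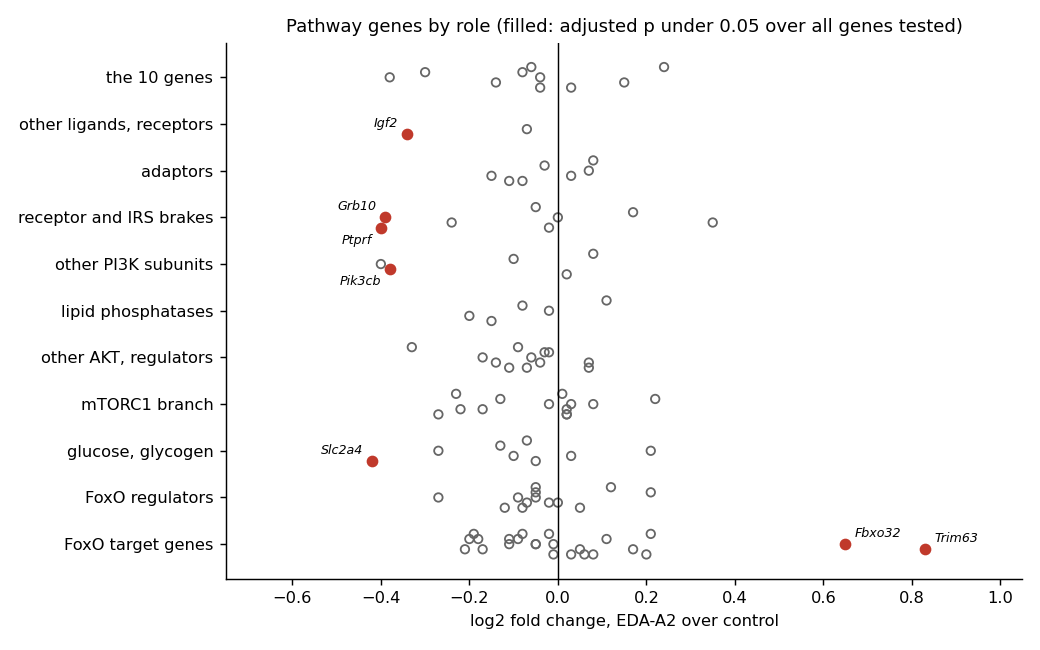
Log2 fold change (x axis, EDA-A2 over control) of the tested pathway genes, 1 point a gene, grouped by role on the y axis, with filled and named points for those called in edgeR. The 10 genes hold no filled point, 5 pathway genes are filled between -0.42 and -0.34, and Fbxo32 and Trim63 stand at 0.65 and 0.83.

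Trim63 was the gene of the target list with the lowest adjusted p, and its RefSeq window held the FoxO motif, which is shown in capitals. The motif was found in 3.65% of all windows. Fbxo32 had no entry among the windows, and matches were not looked up for the other targets of the list. The stretch is chr4:134042181-134042392 on the plus strand of GRCm39 and ends at the annotated gene start.
Trim63 promoter: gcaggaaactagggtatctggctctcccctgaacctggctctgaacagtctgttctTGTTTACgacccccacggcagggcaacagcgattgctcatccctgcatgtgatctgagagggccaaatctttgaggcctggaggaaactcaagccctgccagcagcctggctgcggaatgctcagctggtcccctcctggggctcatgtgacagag
The match begins at position -194 from the RefSeq start and describes letters only.

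Some counts are less certain because genes overlap on the opposite strand and, although the library kit keeps strand, the strand setting of the counting is not given in the sources used here. Opposite-strand genes shared 7.27% of the exon bases of Foxo1, 6.31% of Igf1r, up to 4.97% of Irs2, 3.31% of Irs1, 2.06% of Foxo3 and 0.922% of Insr. Igf1, Pik3r1, Akt2 and Foxo4 shared none.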

How the data were processed

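Bulk RNA sequencing of 4 libraries was used. The authors checked reads with FastQC 0.11.9 and MultiQC 1.12, trimmed them with Trim Galore 0.6.5, mapped them to GRCm39 with STAR 2.7.3a and counted them with HTSeq 0.11.1. The deposited values are raw counts per Ensembl gene, not normalized or pooled. HTSeq's summary lines (no feature 6.68% to 7.40% of all counts, ambiguous 0.946% to 0.986%) were left out. The annotation release is not given in the sources used here. Symbols and positions came from GENCODE M39, which matched 52610 of the 53647 genes.

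The fit across all genes used edgeR 4.0.16 under R 4.3.3: filterByExpr (min.count 10, min.total.count 15), TMM scaling, then glmQLFit and glmQLFTest. The model held condition alone, with Benjamini-Hochberg adjustment over all genes tested. Standard errors are the log2 fold change over the square root of F. In simulated data for this comparison, edgeR called 200 of 200 genes given a log2 change of 1, and 9 unchanged genes. Changes as small as those fitted for the genes of interest were not simulated, so this does not show how often they would be called. Alternatives were other scalings (DESeq2 size factors, upper quartile, total counts), other filters, the DESeq2 1.42.0 Wald test, limma 3.58.1 voom, a replicate block, protein-coding genes only and leaving out each library. The genes and lists were chosen with earlier results of these data known. All 10 genes were named. From the other lists, genes called (at most 5) or else the smallest p-value were named. Promoter windows came from RefSeq (GRCm38.p6) and were placed on GRCm39 by exact match.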

Additional observations from a re-analysis of the deposited data

How the results depend on the processing

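Among the 10 genes, none was called under any scaling, filter or test tried or with any library left out. The exception was the fit with a replicate block, in which Irs1 (-0.36) and Irs2 (-0.30) were called lower and Pik3r1 (0.25) higher, so 1 was higher and 2 lower. The labels number the libraries but give no shared culture or day, and the deviations of same-numbered libraries correlated at 0.0598 over 15173 genes, so the numbers are not taken as pairs. That block also raised the count over all genes to 1066 (529 lower), with 1 pathway gene higher and 8 lower. Under total counts Akt2 (0.01) and Foxo3 (0.02) changed sign, 194 genes were lower over all, and 1 pathway gene was higher and 2 lower. Without a filter 86 genes were called, 64 higher and 22 lower, and 0 pathway genes (16 at an unadjusted p under 0.05). This setting tests 25545 genes. Pathway genes called lower numbered 3 with upper quartile factors and 2 with DESeq2.

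With 1 library left out, the lone library of a condition is assumed to vary like the other condition. Over all genes 0 to 402 were called, 0 to 238 higher and 0 to 170 lower, with 0 to 2 pathway genes lower and 0 to 2 FoxO targets higher. Without control replicate 1 or control replicate 2 edgeR called 0 genes, with 2179 and 2448 at an unadjusted p under 0.05, among them 3 of the 10 genes in each case. The calls of Fbxo32 and Trim63 ended there too, at log2 fold changes of 0.56 and 0.74 for Fbxo32 and of 0.81 and 0.85 for Trim63. Ranges were -0.26 to 0.19 for Igf1, -0.05 to 0.13 for Igf1r, -0.66 to -0.04 for Irs1, -0.11 to 0.04 for Akt2 and -0.17 to 0.02 for Foxo4. With 2 libraries per condition, the 95% intervals of these genes had half-widths of 0.14 to 0.32 on the log2 scale, before adjustment. A change under these half-widths could not be told from 0. A call needed more: Irs1 (-0.38), Irs2 (-0.30) and Pik3r1 (0.24) exceeded theirs (0.30, 0.19 and 0.18) and were not called in the main fit.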
